A study of Mus musculus with 6 samples.

Results

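Transcripts of 56 genes of mitosis, the kinetochore and cytokinesis were followed in cultured mouse RTECs, the renal tubular epithelial cells that line the nephron. The 56 genes were taken by gene symbol from a list of mitotic regulators, and each has 1 row among the 46517 gene rows of the deposited count files. The list was chosen with earlier results of these data known. All 6 cultures were grown from kidneys of wild type FvB mice, whose age the labels give as 4 to 6 weeks. The methods of the study name males and give a younger age range. The cells were grown in medium with 10% fetal bovine serum and 20 ng/ml EGF to 70% confluence, held without serum for 24 h, and then kept for a further 24 h either without (CTL, n = 3) or with 50 ng/ml TGF-β1 (n = 3). The labels do not say whether the 3 numbered cultures of a group came from separate mice, so p-values measure the spread between these cultures, which may be technical. In a bulk culture, fewer dividing cells and less RNA per dividing cell cannot be told apart.

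Mitosis is driven by cyclin-dependent kinase 1 bound to A-type and B-type cyclins, with the Polo and Aurora kinases acting beside it. Kinetochores, protein assemblies built on centromeric chromatin, attach chromosomes to spindle microtubules, and the spindle checkpoint holds the anaphase-promoting complex (APC/C) in check until every chromosome is attached. The central spindle then positions the contractile ring that divides the cell. Most of these genes are transcribed late in the cell cycle, and their transcripts are widely used as markers of dividing cells. Tubule cells divide rarely in healthy kidney and enter the cycle after injury and in culture.

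Replicate 2 of each group stood apart before any mitosis gene was considered. The fibroblast markers were Pdgfra, Pdgfrb, Dcn, Lum and the collagens Col1a1, Col1a2 and Col3a1. Summed over these 7 genes, they made up 2630 and 3220 CPM (counts scaled to a library total of 1e+06) in CTL and TGF-β1 replicate 2, against 1060 to 1400 CPM in the other 4 cultures. Summed tubule and kidney epithelium markers (14 genes) were lowest there, at 1160 and 913 CPM against 1790 to 2780 CPM. Endothelial markers summed to 0.91 to 2.57 CPM over 6 genes and leukocyte markers to 4.86 to 20.1 CPM over 7 genes. With TGF-β1, 0 of 6 fibroblast and 0 of 2 endothelial markers tested were called (edgeR, and 0 at an unadjusted p under 0.05, 0 by DESeq2 and 0 by limma-voom), and of 5 leukocyte markers 1 fell, the macrophage receptor Csf1r (log2 fold change -1.32). In a fit with the replicate number as a further term, 2 fibroblast markers were lower and 2 higher. Of all genes tested, 19.1% were lower and 15.1% higher in that fit. Of 11 tubule markers tested, 3 (Pax8, Cdh16 and Lrp2) fell with TGF-β1 in the fit without that term, where 6.69% of all genes tested did. Their log2 fold changes were -0.77, -1.5 and -0.93. The other 8 were not called, and 7 of the 11 had a log2 fold change below 0, as did 50.7% of all genes tested. With the replicate number as a further term 7 of the 11 were lower, against 19.1% of all genes tested. The segment markers Slc34a1, Slc12a3 and Aqp2 had too few counts to test. The part of these differences in the results below was not tested, and the main count is also given without the replicate 2 cultures.

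With TGF-β1, 43 of the 56 mitosis genes fell and 0 rose (edgeR quasi-likelihood test, adjusted p under 0.05), where 6.69% of all 15862 genes tested were called lower and 5.0% higher. None of the 56 was higher even at an unadjusted p under 0.05, and DESeq2 and limma-voom also called 0 higher, with 45 and 43 lower (9.59% and 6.62% of all genes tested). The median log2 fold change of the 56 genes was -1.32, with a range from -2.38 to 0.49, against a median of -0.0028 over all genes tested. 33 of the 56 lay below -1, as did 5.08% of all genes, and 11 lay below -2, as did 1.19%. In 48 genes every TGF-β1 culture was below every CTL culture, which held for 18.0% of all genes tested. All 56 genes passed the filter on low counts, and the smallest count was 7 reads, for Cdc25c and Spc24 in a TGF-β1 culture.

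The cultures differed in how strongly the set moved. The median log2 ratio of TGF-β1 to CTL over the 56 genes was -1.34 between the replicate 1 cultures. It was -1.65 between the replicate 2 cultures and -0.91 between the replicate 3 cultures (SD 0.37). Over all genes tested the medians of these 3 pairs were -0.0003, -0.0173 and -0.0019. CTL replicate 2 had the highest CTL value in 46 of the 56 genes (82.1%, against 40.7% of all genes tested), and CTL replicate 3 the lowest in 46 (82.1%, against 39.7%). Without both replicate 2 cultures, 37 genes were called lower, where 8.09% of all genes were, and the median was -1.14. Several other fits with cultures left out called fewer of the 56 genes and also fewer of all genes. Without CTL replicate 1 or without TGF-β1 replicate 1, 15 of the 56 were called lower, with 1.15% and 1.19% of all genes. The number was 28 without CTL replicate 2 (3.79% of all genes) and 12 when replicate 3 of each group was left out (1.19%). With the replicate 1 culture of each group left out, edgeR called 0 of all 15961 genes tested lower and 0 higher (0.0%), so 0 of the 56. At an unadjusted p under 0.05, 43 of the 56 were lower in that fit, against 7.41% of all genes, and the median was -1.42. Aurkb, Ccna2, Ccnb2, Cenpe, Cenpf, Kif11, Kif2c, Mki67, Nusap1, Prc1, Spc25, Top2a and Ube2c, 13 in all, were called lower in each of the 6 fits that left out 1 culture, a criterion met by 0.983% of all genes tested, whereas the call of Incenp was lost in every one of them. Cdc25b, Aurka, Mad2l1, Ttk, Cdc20, Cdca8, Cenpa, Tpx2 and Ncapg kept their call in only 1 of the 6 fits. Melk, Bub1, Spc24, Anln and Ect2 kept theirs in 2.

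The replicate numbers were taken to pair the cultures, which the labels do not state. A fit with the replicate number as a block, a term for what same-numbered cultures share, was run beside the one above. With the block 48 of the 56 genes were lower and 1 was higher, against 19.1% and 15.1% of all genes tested. The 5 genes that were lower only with the block are Cdc25c, Racgap1, Smc2, Smc4 and Ncapd2, and the 1 that was higher is Cit. Cks2, Bub3, Pttg1, Cenpk, Cenpn, Ckap2 and Ncaph were called in neither fit.

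**Figure D1:**
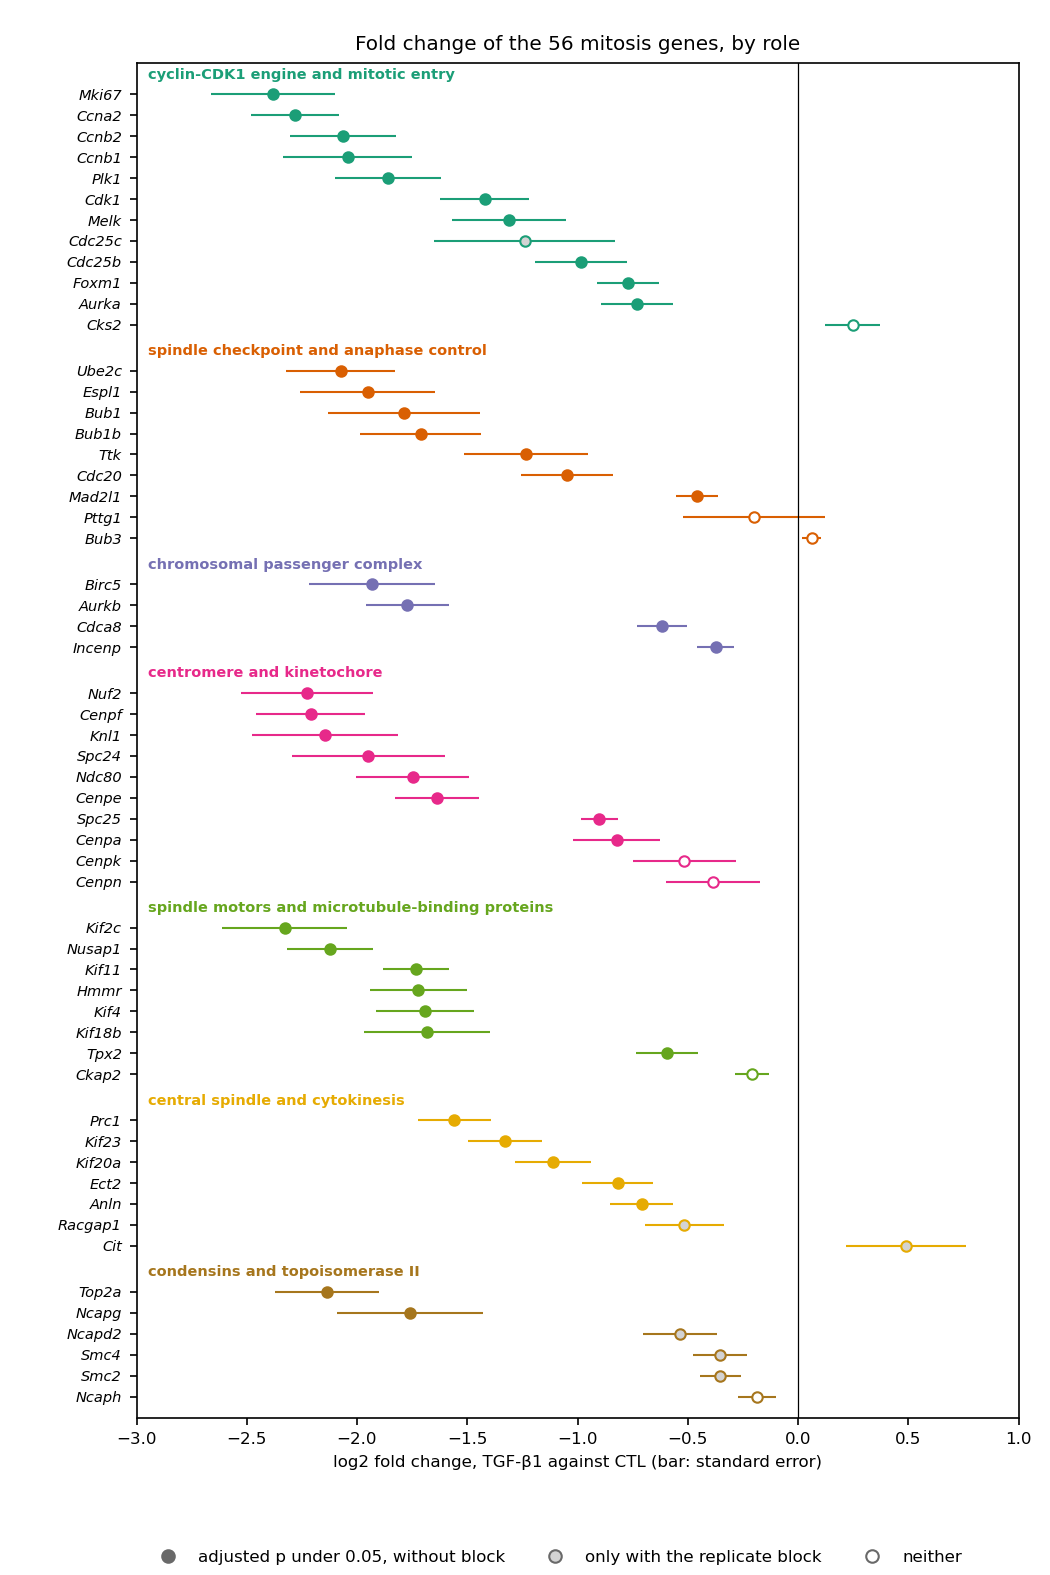
Log2 fold change of each of the 56 genes with TGF-β1 against CTL (x axis), grouped by role and ordered within each role. Bars are standard errors derived from the F statistic of edgeR. Filled points passed an adjusted p of 0.05 without the replicate block, grey points only with it, and open points in neither fit. The points run from -2.38 (Mki67) to 0.49 (Cit), and 53 of 56 lie below 0.

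The promoters of these genes share sequence features that played no part in choosing them. RefSeq start sites on GRCm38.p6 were at hand for 47 of the 56 genes, with 52 windows from 250 bases before to 50 bases after a start. The windows were searched on both strands for CCAAT, the box bound by the factor NF-Y, and for TTTGAA and TTCGAA, the letters of the cell cycle homology region (CHR), an element known from promoters of late cell cycle genes. Matches of different motifs may share bases. CCAAT was found in 40 of the 52 windows (76.9%) against 37.4% of all 32851 windows of the table, and 46.2% against 11.7% held it 2 or more times. TTTGAA or TTCGAA was found in 38 windows (73.1%) against 19.2%. Both kinds of motif were found in 34 windows (65.4%), against 7.52% of all windows, 5.59% of the windows of genes tested and 5.1% of those of other genes called lower. A match describes letters only, and not a bound site or a cause.

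The CHR letters were found in 29 of the 36 called genes with a window (80.6%) and in 6 of the 11 genes not called lower (54.5%). For CCAAT the shares were 75% and 72.7%. The median position of a CCAAT match was 65 bases before the start (position -65.0), and 64.7% of matches lay in the last 100 bases before it, against 43.6% over all windows. The CHR letters lay closer, with a median at -9.0 and quartiles at -101.0 and 16. Unlike CCAAT, their share in the last 100 bases was not above that of all windows: 29.5% of TTTGAA matches lay there against 30.4% over all windows, and 0.0% of the 5 TTCGAA matches against 24.9%.

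The last 120 bases before a RefSeq start (GRCm38.p6) are shown for 5 genes that fell and 3 that were not called lower, each read 5′ to 3′ on the gene's strand and lying wholly before the gene as GENCODE annotates it. They were picked to show stretches with and without the letters in both groups. Capitals mark CCAAT or TTTGAA or TTCGAA on either strand, so that ATTGG is CCAAT and TTCAAA is TTTGAA on the opposite strand.
Top2a, chr11:99024190-99024309, minus strand: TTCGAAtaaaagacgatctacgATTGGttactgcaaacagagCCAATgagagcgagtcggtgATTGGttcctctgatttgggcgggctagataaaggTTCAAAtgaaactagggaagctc
Kif11, chr19:37376262-37376381, plus strand: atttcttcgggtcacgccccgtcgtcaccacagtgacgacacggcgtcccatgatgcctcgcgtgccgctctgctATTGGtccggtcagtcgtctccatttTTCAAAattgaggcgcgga
Ect2, chr3:27153879-27153998, minus strand: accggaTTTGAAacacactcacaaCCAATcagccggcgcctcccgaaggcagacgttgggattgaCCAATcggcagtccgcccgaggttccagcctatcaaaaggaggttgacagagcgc
Mki67, chr7:135716380-135716499, minus strand: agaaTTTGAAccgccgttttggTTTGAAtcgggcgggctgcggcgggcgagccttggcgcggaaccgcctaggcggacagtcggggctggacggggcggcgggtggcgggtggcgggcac
Nuf2, chr1:169531465-169531584, minus strand: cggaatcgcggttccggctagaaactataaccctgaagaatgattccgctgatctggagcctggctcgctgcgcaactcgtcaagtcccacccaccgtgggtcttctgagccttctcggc
Ckap2, chr8:22185820-22185939, minus strand: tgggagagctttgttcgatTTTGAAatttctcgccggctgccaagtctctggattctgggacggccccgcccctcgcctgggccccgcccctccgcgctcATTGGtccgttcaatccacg
Cks2, chr13:51645112-51645231, plus strand: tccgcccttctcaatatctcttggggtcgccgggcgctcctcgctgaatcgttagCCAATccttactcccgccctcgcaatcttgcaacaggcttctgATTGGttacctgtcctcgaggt
Ncaph, chr2:127133955-127134074, minus strand: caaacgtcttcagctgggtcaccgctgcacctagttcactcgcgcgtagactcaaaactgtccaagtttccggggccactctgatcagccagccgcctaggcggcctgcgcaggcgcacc
Of the genes that fell, the Top2a, Kif11 and Ect2 stretches hold both kinds of letters, the Mki67 stretch holds CHR letters alone and the Nuf2 stretch neither. Of the genes not called, the Ckap2 stretch holds both, the Cks2 stretch CCAAT alone and the Ncaph stretch neither. The longer windows of Mki67 add CCAAT, and those of Nuf2 and Ncaph hold none of the letters. The letters within these bases occur here with and without a fall because the stretches were picked to show both. These examples therefore cannot show how often letters and a fall go together.

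Among the 12 genes of the cyclin-CDK1 engine and mitotic entry, 10 fell and the median log2 fold change was -1.37. For this and each role group below, edgeR called 6.69% of all genes tested lower. In 18.0% of all genes tested, every TGF-β1 culture was below every CTL culture. Mki67 (ENSMUSG00000031004.7, minus strand of chromosome 7 from 135689784 to 135716361, GRCm38) encodes the Ki-67 antigen that coats mitotic chromosomes and is the standard marker of proliferation. It had 418, 524 and 296 TMM-normalized counts (counts scaled for library size and composition) in CTL replicates 1, 2 and 3 and 85.4, 57.0 and 94.9 in TGF-β1 replicates 1, 2 and 3. The highest TGF-β1 culture was well under the lowest CTL culture, and Mki67 changed by -2.38 on the log2 scale (standard error 0.28, adjusted p = 0.00787), the most negative of the 56. The cyclins followed, with Ccna2 at -2.28, Ccnb2 at -2.06 and Ccnb1 at -2.04, all more negative than their catalytic partner Cdk1 at -1.42 (adjusted p = 0.0119). Plk1, the Polo kinase of mitotic entry and spindle assembly, fell by 1.86 on the log2 scale, and Melk, a mitotic kinase, fell by 1.31.

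Aurka, the Aurora kinase of centrosomes and spindle poles, had 164, 202 and 143 normalized counts in CTL and 95.5, 102 and 110 with TGF-β1 (log2 fold change -0.73, standard error 0.16, adjusted p = 0.039). Foxm1, a transcription factor of late cell cycle genes, fell by 0.77, and Cdc25b, a phosphatase that activates CDK1, fell by 0.98. These groups did not overlap in any of the 3 genes. The related phosphatase Cdc25c had 28.0, 27.9 and 12 normalized counts in CTL and 7.12, 9.33 and 12.2 with TGF-β1. CTL replicate 3 was just below TGF-β1 replicate 3, and the log2 fold change of -1.24 had an adjusted p of 0.108, which became 0.0447 with the replicate block and 0.0437 without CTL replicate 3. Cks2, a small subunit that binds CDK1, did not share the direction. Its normalized counts were 177, 182 and 212 in CTL and 236, 202 and 239 with TGF-β1, which overlapped (log2 fold change 0.25, adjusted p = 0.246).

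**Figure D2:**
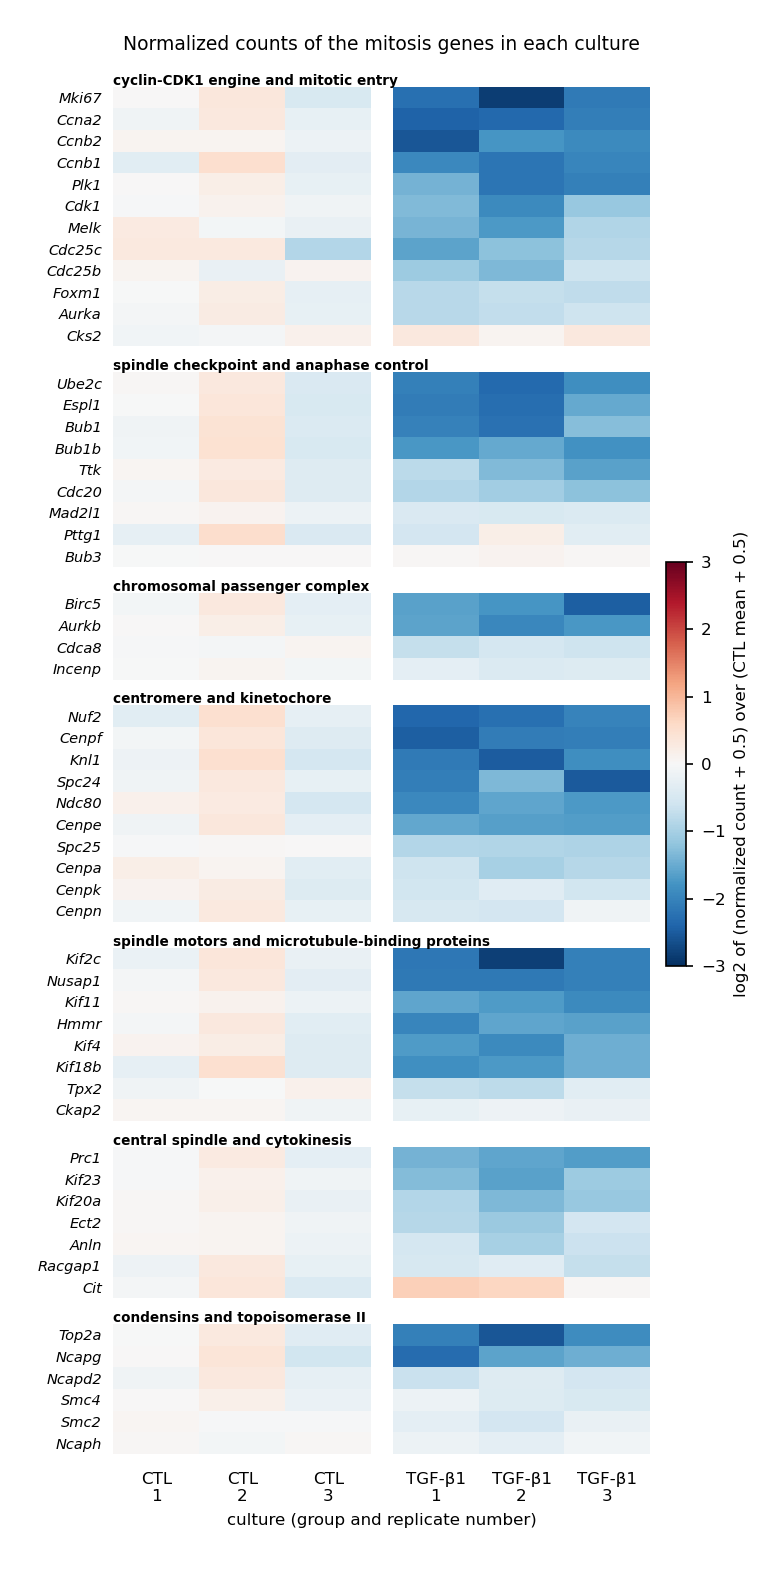
Normalized counts of each gene in each culture, as the log2 ratio of the count plus 0.5 to the CTL mean plus 0.5 (colour scale, blue lower and red higher than the CTL mean). Columns are the 3 CTL and the 3 TGF-β1 cultures by replicate number and rows are genes by role. CTL replicate 2 is the reddest CTL column, being the highest of the 3 in 46 of 56 genes, and most TGF-β1 cells are blue, while the TGF-β1 mean is above the CTL mean for Cks2, Bub3 and Cit alone.

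Of the 9 genes of the spindle checkpoint and anaphase control 7 fell, with a median log2 fold change of -1.23. Ube2c, the ubiquitin-conjugating enzyme of the APC/C, had 180, 217 and 127 normalized counts in CTL and 41.7, 34.2 and 47.9 with TGF-β1. All 3 treated cultures were under the lowest CTL culture, and Ube2c changed by -2.07 on the log2 scale (standard error 0.25, adjusted p = 0.00787). Espl1, the separase that cleaves cohesin at anaphase, fell by 1.95, and the checkpoint genes Bub1, Bub1b and Ttk fell, with log2 fold changes of -1.79, -1.71 and -1.23. Cdc20, the activator of the APC/C that the checkpoint holds back, fell by 1.05, and Mad2l1, the checkpoint protein that binds it, fell by 0.46 (adjusted p = 0.0344). Bub3, the partner of BUB1 and BUBR1 at kinetochores, had the highest level of the 56. It had 2841, 2888 and 2905 normalized counts in CTL and 2971, 3103 and 2943 with TGF-β1. The groups did not overlap, as in 17.2% of all genes in this direction, but the change in Bub3 was 0.06 on the log2 scale (standard error 0.04, adjusted p = 0.387) and turned to -0.0119 when only library size was used for scaling. Pttg1, the securin that inhibits separase, had 187, 326 and 163 normalized counts in CTL and 154, 257 and 179 with TGF-β1. Replicate 2 was the highest of both groups, the groups overlapped, and Pttg1 changed by -0.20 on the log2 scale (standard error 0.32, adjusted p = 0.736), or 0.17 without CTL replicate 2.

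All 4 genes of the chromosomal passenger complex fell, with a median of -1.19, but by unequal amounts. Birc5, survivin, had 80.2, 107 and 69.8 normalized counts in CTL and 27.4, 24.9 and 15.0 with TGF-β1, which did not overlap (log2 fold change -1.93, standard error 0.29, adjusted p = 0.0128). Aurkb, the kinase of the complex, fell by 1.77 (adjusted p = 0.00588). The scaffold Incenp had 506, 542 and 478 normalized counts in CTL and 418, 376 and 384 with TGF-β1 (log2 fold change -0.37, standard error 0.08, adjusted p = 0.0385). Its call did not hold without any 1 of the cultures, nor without the filter on low counts (adjusted p = 0.0539). Cdca8, borealin, had 170, 167 and 183 normalized counts in CTL and 106, 120 and 113 with TGF-β1 (log2 fold change -0.62, standard error 0.11, adjusted p = 0.0233). The kinase and survivin thus changed more than the scaffold and borealin, with standard errors under 0.3 for all 4.

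Of the 10 genes of the centromere and kinetochore 8 fell, with a median of -1.69. Nuf2, a subunit of the NDC80 complex that binds microtubules, had 63.8, 113 and 66.6 normalized counts in CTL and 15.3, 16.6 and 19.7 with TGF-β1. Each treated culture had less than the lowest CTL value (log2 fold change -2.23, standard error 0.30, adjusted p = 0.0104). Its partners Spc24 and Ndc80 fell too, with log2 fold changes of -1.95 and -1.75. Spc25, the remaining subunit of that complex, had 293, 307 and 301 normalized counts in CTL and 163, 161 and 159 with TGF-β1. Its SD was 7.08 in CTL and 1.93 with TGF-β1, far less than the difference between the groups, and the log2 fold change of -0.90 had a standard error of 0.08 (adjusted p = 0.00399). Cenpf, Knl1, the scaffold on which BUB proteins dock, and the kinetochore motor Cenpe fell, with log2 fold changes of -2.21, -2.15 and -1.64. Cenpa, the histone H3 variant that marks centromeres, fell by 0.82 (adjusted p = 0.0476). Cenpk had 37.7, 41.4 and 26.2 normalized counts in CTL and 23.4, 27.0 and 23.5 with TGF-β1 (log2 fold change -0.52, adjusted p = 0.206), and CTL replicate 3 lay within the treated range. Cenpn had 73.5, 98.1 and 66.6 in CTL and 55.9, 53.9 and 72.3 with TGF-β1 (log2 fold change -0.39, adjusted p = 0.295), with TGF-β1 replicate 3 above CTL replicate 3.

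Of the 8 spindle motors and microtubule-binding proteins 7 fell, with a median of -1.71. In all 8 every treated culture was below every CTL culture, as in 18.0% of all genes tested. Kif2c, a kinesin that depolymerises microtubules at centromeres, had 85.1, 126 and 84 normalized counts in CTL and 21.4, 13.5 and 23.5 with TGF-β1 (log2 fold change -2.33, standard error 0.28, adjusted p = 0.0082). Nusap1, which bundles spindle microtubules, fell by 2.12, and Kif11, the kinesin that pushes spindle poles apart, fell by 1.73 with a standard error of 0.15. Hmmr, Kif4 and Kif18b also fell, with log2 fold changes of -1.72, -1.69 and -1.68. Tpx2, the activator of Aurora A on spindle microtubules, was more abundant and changed less. Its normalized counts were 538, 585 and 654 in CTL and 362, 345 and 468 with TGF-β1 (log2 fold change -0.60, standard error 0.14, adjusted p = 0.0451). Ckap2 had 669, 670 and 586 in CTL and 544, 575 and 549 with TGF-β1, and its log2 fold change of -0.21 did not pass the test (standard error 0.08, adjusted p = 0.141, and 0.0506 with the replicate block).

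Of the 7 genes of the central spindle and cytokinesis 5 fell, with a median of -0.82. Prc1, which bundles the antiparallel microtubules of the central spindle, had 430, 533 and 360 normalized counts in CTL and 164, 147 and 138 with TGF-β1. These groups were far apart (log2 fold change -1.56, standard error 0.17, adjusted p = 0.00593). The central spindle kinesins Kif23 and Kif20a fell, with log2 fold changes of -1.33 and -1.11. Anln, the scaffold of the contractile ring, had 698, 710 and 595 normalized counts in CTL and 463, 333 and 429 with TGF-β1 (log2 fold change -0.71, standard error 0.14, adjusted p = 0.029). Ect2, the exchange factor that activates RhoA at the equator, had 364, 374 and 324 in CTL and 195, 164 and 243 with TGF-β1 (log2 fold change -0.82, standard error 0.16, adjusted p = 0.0272). Neither gene overlapped between groups. Racgap1, which with KIF23 forms centralspindlin, had 276, 381 and 259 normalized counts in CTL and 216, 238 and 187 with TGF-β1. The groups did not overlap, but CTL replicate 2 was far above the other CTL cultures, and the log2 fold change of -0.52 had an adjusted p of 0.122, or 0.00576 with the replicate block.

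Cit, the citron kinase of late cytokinesis, moved the other way. Its normalized counts were 79.3, 106 and 61.1 in CTL and 134, 130 and 83.6 with TGF-β1. Each TGF-β1 culture was above the CTL culture of the same number, although TGF-β1 replicate 3 was below CTL replicate 2. Cit changed by 0.49 on the log2 scale (standard error 0.27, adjusted p = 0.293), and with the block 0.50 (standard error 0.14, adjusted p = 0.0304). Cit also encodes non-kinase transcripts, which counts over the whole gene do not separate.

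Among the condensins and topoisomerase II only Top2a and Ncapg fell in the fit without the block, 2 of 6 genes, and the median was -0.44. Top2a, the topoisomerase II that disentangles sister chromatids, had 683, 843 and 536 normalized counts in CTL and 167, 116 and 185 with TGF-β1 (log2 fold change -2.14, standard error 0.24, adjusted p = 0.00698). Its highest treated value was less than the lowest CTL value by a wide margin. Ncapg, a condensin I subunit, fell by 1.76 (standard error 0.33, adjusted p = 0.025). The other condensin subunits were more abundant. Smc4 had 1157, 1304 and 1003 normalized counts in CTL and 1020, 867 and 827 with TGF-β1, with CTL replicate 3 just under TGF-β1 replicate 1 (log2 fold change -0.35, adjusted p = 0.12, and 0.0123 with the block). Its ATPase partner Smc2 had 890, 829 and 832 in CTL and 690, 584 and 724 with TGF-β1 (log2 fold change -0.35, adjusted p = 0.0623, and 0.00661 with the block). Ncapd2 had 398, 542 and 362 in CTL and 272, 331 and 296 with TGF-β1 (log2 fold change -0.54, adjusted p = 0.0967, and 0.00446 with the block). DESeq2 called Smc2 and Ncapd2 lower as well (adjusted p = 0.0222 and 0.0442). Ncaph had 436, 398 and 433 in CTL and 373, 346 and 395 with TGF-β1, which did not overlap, but its log2 fold change of -0.19 passed neither fit (adjusted p = 0.21, and 0.0851 with the block).

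Summed over the genes, mitosis transcripts took 548, 614 and 496 CPM in CTL replicates 1, 2 and 3 and 338, 319 and 343 CPM in TGF-β1 replicates 1, 2 and 3, a ratio of means of 0.603. The CTL cultures spread over a wider range (SD 59.3) than the treated ones (SD 12.7). Bub3 supplied a large part of the sum, and without it the values were 456, 521 and 402 CPM in CTL and 247, 225 and 251 CPM with TGF-β1, a ratio of 0.524. By role, the ratio was lowest for the centromere and kinetochore genes (0.376) and the cyclin-CDK1 genes (0.409). It was 0.527 for cytokinesis, 0.535 for motors, 0.604 for the passenger complex, 0.632 for condensins and topoisomerase II and 0.83 for checkpoint and anaphase control, the group that holds Bub3.

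**Figure D3:**
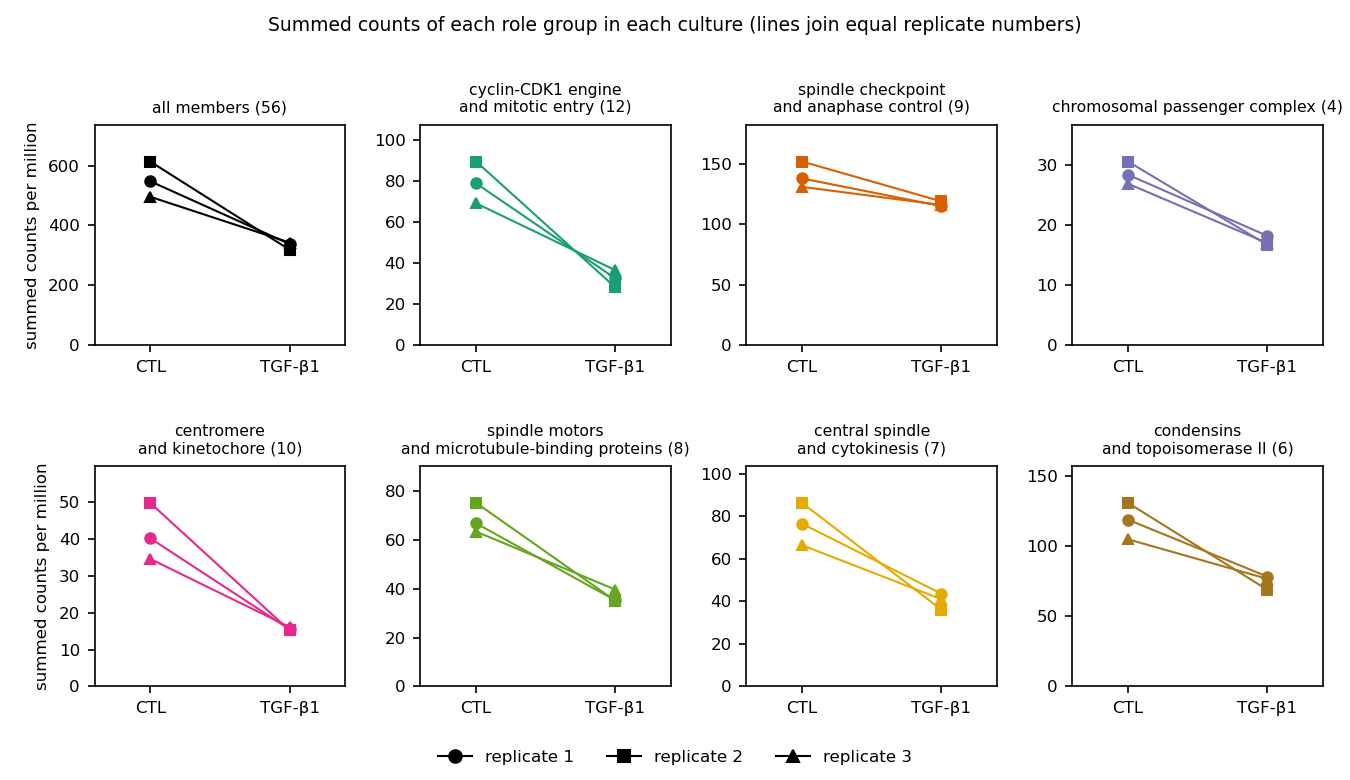
Counts summed over all 56 genes and over each role group, in CPM of all counts on genes (y axis, from 0), in each CTL and TGF-β1 culture. Symbols give the replicate number and lines join equal numbers. Every line falls, from 496 to 614 CPM in CTL to 319 to 343 CPM with TGF-β1 for all 56 genes.

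Levels between genes were compared per kb of exon. Bub3 (411 normalized counts per kb in CTL, 429 with TGF-β1), Cks2 (275 and 326), Smc4 (222 and 174), Ckap2 (173 with TGF-β1) and Smc2 (155 and 122) were the 5 highest of the 56 in both groups, in that order. edgeR without the block called 0 of these 5, while Smc2 was called lower by DESeq2 (adjusted p = 0.0222) and by edgeR with scaling by library size only (adjusted p = 0.0453). The lowest was Cdc25c in both groups, at 4.6 and 1.94. The order of the 56 genes was largely the same in CTL and TGF-β1 (Spearman rho 0.937 across genes, which share the libraries and are not independent). Genes with a higher CTL level per kb had a less negative log2 fold change (rho 0.453 across the 56 genes, given as a description), and CTL values enter both of these measures.

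Because subunits of 1 complex moved by different amounts, ratios between partner transcripts were computed per kb. The pairs were chosen after their values had been seen and therefore without a test. Their ratios restate differences between the fold changes given above, so a lack of overlap was favoured by this choice. The log2 ratio of Bub1b to Bub3 was -3.91, -3.38 and -4.33 in CTL replicates 1, 2 and 3 and -5.63, -5.48 and -5.69 with TGF-β1. That of Aurkb to Incenp was -1.54, -1.44 and -1.71 in CTL and -2.88, -3.09 and -2.91 with TGF-β1. That of Nuf2 to Spc25 was -3.19, -2.44 and -3.17 in CTL and -4.41, -4.27 and -4.00 with TGF-β1. In each of these pairs the cultures of the groups did not overlap. The same was seen for Birc5 to Cdca8 (mean -0.43 in CTL and -1.77 with TGF-β1), Espl1 to Pttg1 (-3.45 and -5.25), Kif23 to Racgap1 (-0.37 and -1.22) and Ncapg to Ncaph (-2.74 and -4.31). Cks2 to Cdk1 went up, from a mean of 1.91 to 3.61. By contrast Smc2 to Smc4 had a mean of -0.51 in both groups, and Ndc80 to Nuf2, Ccnb1 to Cdk1 and Ncapd2 to Ncaph overlapped.

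**Figure D4:**
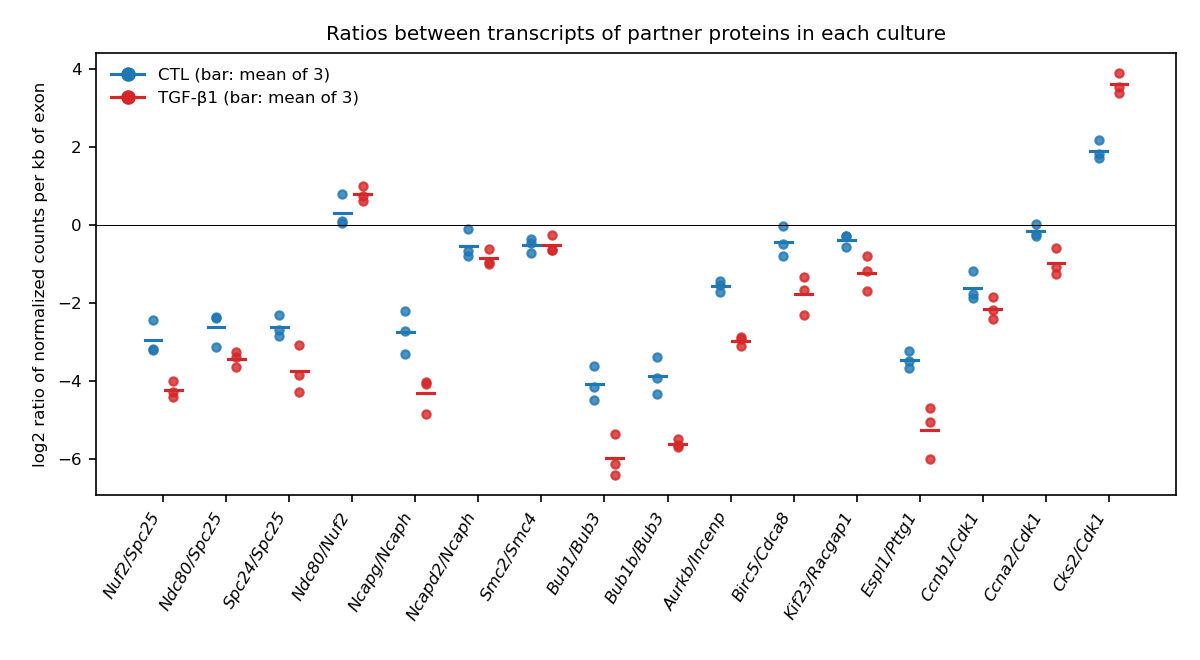
Log2 ratio of normalized counts per kb of exon between partner transcripts (y axis) for 16 pairs, in each CTL (blue) and TGF-β1 (red) culture, with bars at the mean of 3. The TGF-β1 mean minus the CTL mean was -1.88 for Bub1/Bub3, -1.73 for Bub1b/Bub3 and 1.70 for Cks2/Cdk1, while Smc2/Smc4 kept a mean of -0.51 in both groups.

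A further 108 genes of mitosis outside the 56 were looked at by complex, and 107 could be tested. 27 of them were lower and 0 higher (edgeR, with 8 higher at an unadjusted p under 0.05, 2 called by DESeq2 and 0 by limma-voom). Of all genes tested, edgeR called 6.69% lower and 5.0% higher. The median log2 fold change of the 107 genes was -0.21. With the replicate block 40 were lower and 7 higher, where 19.1% and 15.1% of all genes were. The calls gathered in the spindle, motor and cytokinesis genes, where 15 of 28 tested were lower with a median of -0.93. Depdc1b, Kif14 and Ckap2l fell the most among those called, with log2 fold changes of -2.37, -2.36 and -2.22. Depdc1a had the most negative value there, with 18.4, 30.8 and 12 normalized counts in CTL and 5.08, 0 and 4.70 with TGF-β1, but was not called (adjusted p = 0.0695, and 0.0215 with the block). Gtse1, a microtubule-associated protein of late cell cycle phases, had the most positive one, 0.22 (adjusted p = 0.122, and 0.0243 higher with the block).

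Of 30 other centromere and kinetochore genes 8 were lower (median -0.28), where 6.69% of all genes tested were. Ska1, which couples kinetochores to microtubules, had 19.3, 26.9 and 14.2 normalized counts in CTL and 4.07, 4.15 and 2.82 with TGF-β1 (log2 fold change -2.43, adjusted p = 0.0146). The treated values of Ska1 rest on very few reads, so the size of its change is imprecise. At the other end Cenpq had a value of 0.26 (adjusted p = 0.224). Among 13 genes of cohesin and its regulators, the shugoshins Sgo1 and Sgo2a, which protect centromeric cohesion, fell, with log2 fold changes of -2.02 and -1.59, and so did the cohesin subunit Rad21 (-0.33), whereas Pds5a had the most positive value (0.13, adjusted p = 0.211). Of 18 mitotic entry kinases, phosphatases and MuvB factors 1 fell, a share near the 6.69% of all genes tested, and the median was 0.007. The gene that fell was the CDK1-inhibitory kinase Pkmyt1 (by 0.87). Lin37 had the most positive value, 0.22 (adjusted p = 0.167, and 0.0445 higher with the block). Of the 3 condensin II subunits 0 were called (edgeR, 1 at an unadjusted p under 0.05 and 1 by DESeq2), from -0.59 for Ncapg2 (adjusted p = 0.0668, and 0.0143 lower with the block) to -0.06 for Ncaph2.

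The APC/C stood apart from its activator Cdc20 and its enzyme Ube2c. The 15 genes listed for it are core subunits and a further activator, Fzr1. Of these 15, 0 were called by edgeR or limma-voom in the fits of all 6 cultures without the block. DESeq2 called 1 higher, as did edgeR without replicate 2 in both groups. In edgeR on all 6 cultures 2 were higher at an unadjusted p under 0.05. The median was 0.0014, from -0.24 for Anapc15 (adjusted p = 0.256) to 0.18 for Anapc16 (adjusted p = 0.129). With the block 3 were higher, Anapc16, Cdc16 and Cdc27, by 0.16 to 0.18, where 15.1% of all genes were called higher. Scaling by library size alone, which moved the median of all genes to -0.08, put the APC/C median at -0.07 and called 0.

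For comparison, 10 of 32 DNA replication genes were lower and 0 higher (edgeR, where 6.69% and 5.0% of all genes tested were). At an unadjusted p under 0.05, 1 was higher, and DESeq2 and limma-voom called 0 higher. The median log2 fold change of the 32 genes was -0.23. With the block 17 were lower and 1, Tyms, higher, beside the same 19.1% and 15.1%. The largest falls among the genes called there were Mcm10 (log2 fold change -1.67), Cdc6 (-1.64) and Prim1 (-1.01). Their summed level was 535 ± 39.3 CPM in CTL and 431 ± 15.6 CPM with TGF-β1 (SD, n = 3 each), a ratio of 0.805 against 0.603 for the 56 mitosis genes. These lists were chosen with earlier results of these data known, and the difference between them was not tested.

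**Figure D5:**
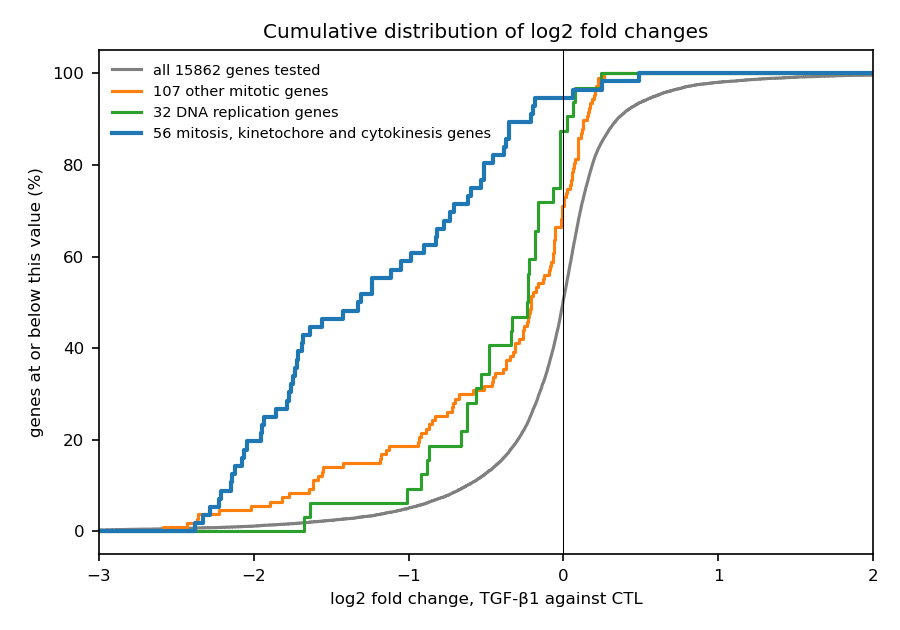
Cumulative share of genes (y axis, percent) at or below each log2 fold change with TGF-β1 against CTL (x axis), for all 15862 genes tested (grey), 107 other mitotic genes (orange), 32 DNA replication genes (green) and the 56 mitosis, kinetochore and cytokinesis genes (blue). The blue curve crosses the middle at its median of -1.32, left of the orange (-0.21), green (-0.23) and grey (-0.0028) medians.

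Some counts can carry reads of a neighbouring gene or lose them to the rule against ambiguous reads, since whether counting used strand is not given in the sources used here. 16 of the 56 genes share exon bases with another gene of the GENCODE M21 annotation, 13 of them with one on the opposite strand. The shared part is over 10% of the exon bases for 7 genes, with the highest values for Kif20a with Cdc23 (29.3%), Ube2c with Tnnc2 (22.8%) and Kif4 with Pdzd11 (15.1%). Exon length was taken as the union of all annotated exons, which can exceed the length of the main transcript and lower a level per kb.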

How the data were processed

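RNA sequencing of 3 CTL and 3 TGF-β1 cultures of primary RTECs was analysed. The authors deposited whole-read counts per gene, 1 table per culture, with no normalization. Poly(A) mRNA from 100 ng of RNA was read as single ends, and reads were trimmed (Trim Galore), aligned to GRCm38 (STAR 2.4.1d) and counted (HTSeq 0.6.1), tools that are also named in the submitters' processing notes. The annotation release and the strand setting are not given in the sources used here. Counts on genes summed to between 28313080 and 34183497 per culture, and rows that name no gene (25.4% to 25.9% of all entries, mostly reads with more than 1 alignment) were left out. 3 counts correspond to 0.0878 to 0.106 CPM, for counting error only. No library matched another within sampling noise (chi-square per degree of freedom at least 9.02).

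Symbols and exons came from GENCODE M21 (46005 of 46517 identifiers matched), and promoter windows from RefSeq. The 56 genes, the role groups and the other lists were chosen with earlier results of these data known. Counts were tested with edgeR 4.0.16 in R 4.3.3 (filterByExpr by group, TMM, robust glmQLFit and a two-sided glmQLFTest), without a replicate block, since the study describes an unpaired test. P-values were adjusted by Benjamini and Hochberg's method across all 15862 genes that passed the filter, and 0.05 was the threshold. Standard errors were derived as the absolute log2 fold change over the square root of the F statistic of that test. Deviations from the group mean correlated at 0.34, 0.684 and 0.572 between same-numbered CTL and TGF-β1 cultures. Between cultures of different numbers the correlations ran from -0.617 to 0.216. The positive ones were CTL 1 with TGF-β1 3 (0.216) and CTL 3 with TGF-β1 1 (0.144). The replicate numbers of the labels were taken to pair the cultures, which the labels do not state. An exact permutation test of 3 against 3 cannot go below p = 0.1 and is not reported per gene. Values were printed by rule for, in each role group, the 2 genes with the highest level per kb, the most negative and most positive fold change and every gene not called lower, and for the extremes of each further list of mitotic genes. Other genes named were chosen after their values were seen. Alternatives were DESeq2 1.42.0, limma-voom (limma 3.58.1), RLE, library size only, other filters, the block, a threshold of 0.01 and leaving out cultures.

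On simulated counts (15671 genes, with a log2 change of 1 put into 200 of them) 61% of the changes were recovered by edgeR with 9.63% false calls, the block fit 62% with 16.2%, limma-voom 60% with 6.98% and DESeq2 70% with 30.7%. The simulated counts held no effect shared by same-numbered cultures, and a smaller share of changed genes than was called here. They therefore cannot show how the fits with and without the block compare on these cultures. Figures were drawn with matplotlib 3.10.9.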

Additional observations from a re-analysis of the deposited data

How the results depend on the processing

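The median log2 fold change of the 56 genes stayed between -1.63 and -1.14 in all fits, and the number called lower was 42 to 48 under DESeq2, limma-voom, RLE, library size only, both other filters and the replicate block. It was 17 at a threshold of 0.01, 15 to 39 when 1 culture was left out, and 0, 37 and 12 without replicates 1, 2 and 3 in both groups, fits with fewer cultures and no block. With the replicate block 1 gene (Cit) was higher. Of the other mitotic genes, the 27 lower calls became 6 at 0.01, 5 to 23 when 1 culture was left out, and 0, 21 and 6 without replicates 1, 2 and 3 in both groups. Their 0 higher calls became 7 with the block, 2 with DESeq2 and 1 without replicate 2 in both groups. The 10 DNA replication genes lower became 17 with the block, 0 at 0.01, 0 to 7 when 1 culture was left out, and 0, 5 and 1 without replicates 1, 2 and 3 in both groups. Fold changes that turned sign were those of Bub3 (-0.0119 with library size only) and Pttg1 (-0.44 to 0.17 when 1 culture was left out, above 0 without CTL replicate 2), neither of them called. Of the 10 highest levels per kb, 7 remained among the 10 highest when counts were not divided by exon length. The causes of these differences were not tested. At this depth the least covered of the 56 genes, Cdc25c and Spc24, rest on 7 reads in their lowest culture, and 3 cultures a group limit every call. Ska1 and Depdc1a, outside the 56, had lower counts still.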
